A study of Rattus norvegicus with 16 samples.

Results

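Genes of apoptosis and of the p53 death response were followed in 2 rat tissues, liver and bone marrow, after treatment with N-nitrosodiethylamine (NDEA), a nitrosamine that liver cytochrome P450 turns into a DNA-alkylating agent. The 35 members were the rows of the deposited count table whose gene name is on a fixed list of BCL2 family genes, caspases, inhibitors of apoptosis, death receptors with their adaptors, and p53 death targets. Of the 35, 32 had a record by that name among 32623 gene records, and 28 had at least 1 count in some library. The abundance of Mcl1, Bbc3 and Tnfrsf10b was not analysed here.

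Apoptosis is reached by an intrinsic and an extrinsic route. In the intrinsic route BH3-only proteins release Bax and Bak from BCL2-type inhibitors, the mitochondrial outer membrane opens, and cytochrome c with Apaf1 activates caspase-9. In the extrinsic route ligands of death receptors such as Fas and TNF receptor 1 assemble adaptors that activate caspase-8, which c-FLIP restrains. After DNA damage the transcription factor p53 can induce genes at several steps of both routes, besides genes of cell cycle arrest and of its own feedback.

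The 4 groups were NDEA liver, control liver, NDEA marrow and control marrow, with 4 libraries each and 16 in all. The animals were female Big Blue rats, transgenic for a vector with the cII and lacI reporter genes of mutation assays, a background that the controls share. They arrived at 6 weeks of age, were acclimated, and then received 10 mg/kg/day NDEA or 0 mg/kg/day (control) by gavage on 28 consecutive days, and were killed 3 days later. Sequencing read the 3′ ends of polyadenylated RNA from whole tissue. The labels do not say whether liver and marrow libraries of the same number came from 1 rat, so p-values measure the spread between libraries. In bulk RNA, fewer cells of a type and less RNA per cell cannot be told apart.

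Liver libraries held 5000844 to 6863592 counts, and marrow libraries 2162182 to 5705705, the shallowest being control 1. A count of 0 allows an abundance of up to 0.437 to 0.6 CPM (counts scaled to a common library size) in liver and 0.526 to 1.39 CPM in marrow, taken as 3 counts of each library's total; these limits cover counting error alone. NDEA marrow libraries 3 and 4 detected the fewest genes of all, down to 9101. Of 11 neutrophil markers, 5 had 0 counts in liver, Mpo and Elane among them, and Ltf had 0 counts in marrow too. Of 10 hepatocyte markers, 5 had 0 counts in marrow, Ttr and Fga among them, but the list summed to 1100 to 1800 CPM in NDEA marrow and 853 to 1650 CPM in control marrow, with 3 members high enough to be tested. Alb, also on this list, had 2 counts in control marrow and 0 in NDEA marrow, so these sums came from other genes of the list.

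Casp6, an effector caspase, Cycs, cytochrome c, and the p53 targets Eda2r and Pidd1 had 0 counts in all 16 libraries. Some cell markers were at 0 as well, Col1a2 in both tissues and Ltf in marrow among them. A record with 0 counts therefore does not by itself show that the transcript was absent. The Cycs record of the deposited table lies on chromosome 18, whereas RefSeq (assembly GRCr8) places the gene on chromosome 4, the sole mismatch among the 32 records, so its 0 counts may not describe that gene. Of the 28 members with counts, 25 passed the filter on low counts in liver and 19 in marrow. Bcl2, Bik and Casp8 were too low to be tested in liver. Bcl2, Bik, Bmf, Birc3, Xiap, Casp8, Casp12, Perp and Tp53inp1 were too low in marrow. CPM values below are scaled within each tissue unless stated. Calls rest on an adjusted p below 0.05, taken over all genes tested.

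In liver, NDEA raised Perp and Aen, both induced by p53, and no member fell. That is 2 of 25 tested members (8%), against 6.61% of all 9668 genes called, 2.87% higher and 3.74% lower. All genes split into 277 called higher and 362 called lower, and into 390 and 239 when scaled by library totals alone. NDEA and control libraries did not overlap for 5 of the 25 members (20%), Perp, Aen, Fas, Bak1 and Birc2, all higher with NDEA, against 6.54% of all genes in that direction; none was lower without overlap, against 5.98%. The median log2 fold change of the tested members was 0.43, with 16 estimates above 0 and 9 below, against 0.01 over all genes, of which 51.2% had a higher estimate. At an unadjusted p under 0.05 there were 4 members (16%), Perp, Aen, Fas and Bcl2l1, against 18.7% of all genes.

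Perp, a membrane protein of desmosomes that p53 induces during apoptosis, lies on chromosome 1 at position 14224393 of the deposited table (ENSRNOG00000011994). Its abundance was 74.3, 78.6, 107 and 87.1 CPM in NDEA livers 1 to 4, against 46.7, 49.9, 33.9 and 31.3 CPM in control livers. The lowest NDEA liver stood well above the highest control. The fold change was 2.16 (log2 1.11 with SE 0.20; limma-voom adjusted p = 0.000844). Perp was called in 16 of 16 alternative fits, with log2 fold changes of 1.00 to 1.22.

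Aen, a nuclease that p53 induces and that digests DNA and RNA in dying cells, lies on chromosome 1 at position 140584380 (ENSRNOG00000018421). It stood at 19.6, 23.9, 19.5 and 34.0 CPM in NDEA livers, against 4.53, 12.6, 9.92 and 4.42 CPM in control livers. The groups did not overlap, and the controls fell into a lower and a higher pair. The fold change was 3.33 (log2 1.74, SE 0.42; limma-voom adjusted p = 0.0113). The call held in 15 of 16 alternatives and ended without control 1, where the log2 fold change was 1.49 (limma-voom adjusted p = 0.0547).

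The promoter windows of these 2 called genes are shown because p53 is known to act through paired decamers of DNA. They run from 250 bases before to 50 bases after the start of transcription (RefSeq, GRCr8, plus strand), Perp at chr1:15361534-15361833 and Aen at chr1:142224283-142224582. Capitals mark an exact match to the p53 decamer consensus, which reads the same on both strands, so both were searched.
Perp: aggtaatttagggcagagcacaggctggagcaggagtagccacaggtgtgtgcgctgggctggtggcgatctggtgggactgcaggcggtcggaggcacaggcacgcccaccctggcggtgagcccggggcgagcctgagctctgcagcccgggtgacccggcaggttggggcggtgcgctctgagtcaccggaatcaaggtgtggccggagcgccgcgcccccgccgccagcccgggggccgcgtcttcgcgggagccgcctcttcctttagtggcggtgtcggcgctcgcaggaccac
Aen: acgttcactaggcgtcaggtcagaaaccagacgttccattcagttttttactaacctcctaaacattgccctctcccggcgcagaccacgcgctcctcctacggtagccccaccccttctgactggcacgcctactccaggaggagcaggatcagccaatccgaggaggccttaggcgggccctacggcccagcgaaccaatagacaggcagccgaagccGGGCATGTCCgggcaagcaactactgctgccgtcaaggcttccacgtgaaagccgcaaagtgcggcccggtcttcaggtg
The Aen window holds 1 exact decamer, starting at base 221 of 300, and the Perp window holds none. Windows were found for 26 members, Mcl1 among them, 29 in all. An exact decamer lay in 4 of the 29 (13.8%), those of Aen, Ei24, Cflar and Pidd1, against 7.98% of all 33469 windows of the table. A pair of decamers up to 13 bases apart, each with at most 1 mismatch, lay in 1 of the 29 (3.45%), that of Pidd1, against 2.23% of all windows. The Fas window (chr1:241211905-241212204) held none. A match is a description of these letters and not a binding site.

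**Figure D1:**
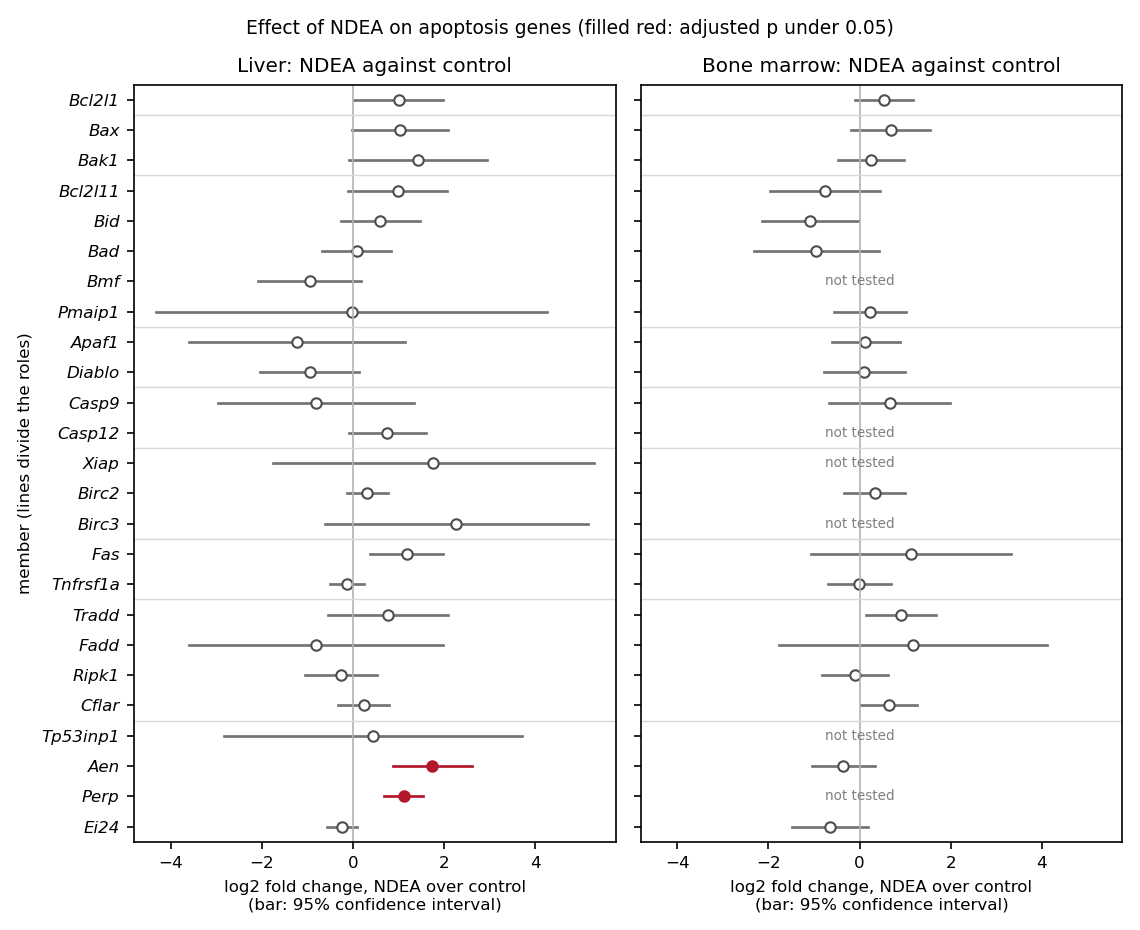
Log2 fold change of each tested member, NDEA over control, in liver (left) and bone marrow (right), with 95% confidence intervals. Members are ordered by role, and filled red points mark an adjusted p under 0.05. Perp and Aen are the 2 filled points, both in liver; no marrow point is filled.

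Among death receptors, Fas (chromosome 1, position 252589785) stood at 27.4, 20.9, 17.7 and 25.9 CPM in NDEA livers, against 4.06, 11.2, 16.6 and 14.9 CPM in control livers. The groups did not overlap, although NDEA 3 and control 3 lay close together. Fas missed the threshold (log2 fold change 1.18 with SE 0.39; limma-voom adjusted p = 0.0711). It passed with scaling by library totals alone (limma-voom adjusted p = 0.0457) and without NDEA 3 (0.0472), and its adjusted p over the 16 alternatives went up to 0.311, without control 1. Tnfrsf1a, TNF receptor 1, averaged 52.7 ± 5.10 CPM in NDEA liver and 57.7 ± 3.58 CPM in control liver (SD, n = 4 each), a log2 fold change of -0.14 with a 95% interval of -0.50 to 0.23.

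The pore-forming executioners Bax and Bak1 had higher estimates without a call. Bax (chromosome 1, position 101451802), a p53 target in many cells, stood at 15.3, 6.08, 11.0 and 12.9 CPM in NDEA livers, against 2.97, 11.2, 3.79 and 7.19 CPM in control livers. The groups overlapped, with NDEA 2 and 3 below the highest control. The log2 fold change of Bax was 1.03 with a 95% interval of -0.03 to 2.09 (limma-voom adjusted p = 0.285), so the data exclude neither no change nor a large rise. Bak1 (chromosome 20, position 5609625) stood at 5.96, 5.89, 9.42 and 4.80 CPM in NDEA livers, against 3.44, 2.98, 2.34 and 1.11 CPM in control livers. The groups did not overlap, but counts were low and the call was missed (log2 fold change 1.42 with SE 0.73; limma-voom adjusted p = 0.307).

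Of the inhibitors that hold Bax and Bak1 in check, Bcl2l1, which encodes Bcl-xL (chromosome 3, position 148259596), stood at 14.4, 12.5, 12.0 and 8.09 CPM in NDEA livers, against 9.37, 6.13, 4.33 and 3.69 CPM in control livers. NDEA 4 and control 1 overlapped (log2 fold change 1.00 with SE 0.47; limma-voom adjusted p = 0.253). The log2 ratio of Bax to Bcl2l1 counts averaged -0.10 ± 0.71 in NDEA liver and 0.00 ± 1.20 in control liver (SD, n = 4 each), a description with no test. Bcl2 (chromosome 13, position 26605426) stood at 9.02, 1.90, 1.27 and 3.75 CPM in NDEA livers, against 1.09, 1.05, 1.62 and 0.737 CPM in control livers. Its groups overlapped, and most of these values rest on few reads.

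Of the BH3-only genes, sensors of the intrinsic route, none of 5 tested in liver was called, and 3 estimates were higher and 2 lower. Pmaip1, which encodes the p53-induced protein Noxa (chromosome 18, position 62174670), stood at 0, 3.04, 2.67 and 0 CPM in NDEA livers, against 2.34, 0, 0 and 2.03 CPM in control livers. Each group had 2 libraries with no read, and the other libraries had 11 to 19 counts. The 95% interval of its log2 fold change ran from -4.32 to 4.26, so the data exclude neither no change nor a large change either way. Bcl2l11, encoding Bim, averaged 11.4 ± 2.76 CPM in NDEA liver and 6.78 ± 3.73 CPM in control liver (SD, n = 4 each; limma-voom adjusted p = 0.337). Bid, which links death receptors to mitochondria, and Bad had log2 fold changes of 0.60 and 0.08. Bmf, at 5.26 ± 3.67 CPM in NDEA liver and 9.70 ± 3.51 CPM in control liver (SD, n = 4 each), had the most negative estimate of the 5 (log2 fold change -0.95; limma-voom adjusted p = 0.374).

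Downstream of mitochondria no member was called in liver. Apaf1, the scaffold that activates caspase-9, averaged 4.09 ± 3.77 CPM in NDEA liver and 4.08 ± 2.42 CPM in control liver (SD, n = 4 each). Its fitted log2 fold change of -1.24 had a 95% interval of -3.61 to 1.14 and ran from -1.91 to 0.45 over the alternatives. Diablo, which relieves caspases from their inhibitors, had a log2 fold change of -0.95 (limma-voom adjusted p = 0.356). Casp9 (chromosome 5, position 160355833) stood at 2.60, 0.190, 2.39 and 2.70 CPM in NDEA livers, against 5.31, 4.55, 1.98 and 1.11 CPM in control livers, with wide overlap. Casp12, an endoplasmic reticulum caspase in rodents, averaged 18.6 ± 8.56 CPM in NDEA liver and 11.2 ± 4.56 CPM in control liver (SD, n = 4 each; limma-voom adjusted p = 0.341).

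Among inhibitor of apoptosis proteins, Birc2 (cIAP1; chromosome 8, position 6013207) stood at 38.4, 43.7, 36.6 and 33.6 CPM in NDEA livers, against 32.9, 28.9, 28.8 and 30.1 CPM in control livers. The groups were separate by a narrow margin, and the change was small (log2 fold change 0.31 with SE 0.21; limma-voom adjusted p = 0.469). Birc3 (cIAP2) and Xiap had log2 fold changes of 2.27 and 1.76, from at most 3.94 and 5.66 CPM in any NDEA liver, with limma-voom adjusted p of 0.411 and 0.631.

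Of the receptor adaptors and brakes none was called in liver. Cflar, which encodes c-FLIP (chromosome 9, position 65534704), stood at 30.1, 42.0, 21.1 and 35.7 CPM in NDEA livers, against 29.5, 32.4, 24.3 and 19.2 CPM in control livers. The groups overlapped widely (log2 fold change 0.23, 95% interval -0.32 to 0.78). Casp8, the initiator caspase of this route (chromosome 9, position 65614142), was near the limit of detection, at 0, 0.949, 2.67 and 1.20 CPM in NDEA livers, against 0, 0.175, 0.901 and 3.50 CPM in control livers. The kinase Ripk1 and the adaptors Tradd and Fadd had log2 fold changes of -0.27, 0.77 and -0.82, with limma-voom adjusted p of 0.562 to 0.802.

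**Figure D2:**
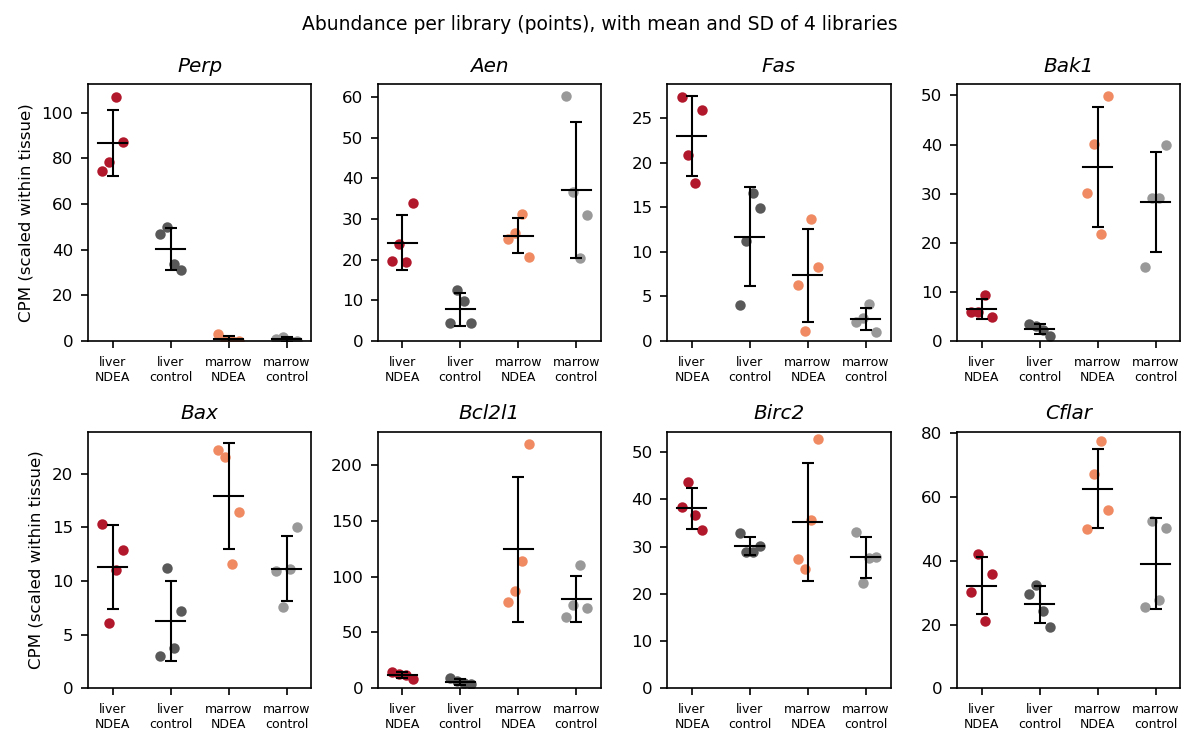
CPM of 8 members in each library (points), scaled within tissue, with the mean and SD of 4 libraries per group; NDEA stands left of control in each tissue. Liver NDEA points lie above all liver control points for Perp, Aen, Fas, Bak1 and Birc2, while Perp is near 0 in marrow.

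The members include 13 p53 death targets, of which 9 were tested in liver. Of these 9, Perp and Aen rose (22.2%) and none fell, with a median log2 fold change of 0.60, against 2.87% of all genes called higher, 3.74% called lower and a median of 0.01. These are the same 2 calls as among all 25 tested members, and the list was chosen with earlier results of these data known. Ei24, a p53-induced protein of the endoplasmic reticulum, averaged 112 ± 25.4 CPM in NDEA liver and 131 ± 17.5 CPM in control liver (SD, n = 4 each; log2 fold change -0.25, 95% interval -0.58 to 0.09). Tp53inp1, which promotes p53-dependent death, had a log2 fold change of 0.43 with a 95% interval of -2.84 to 3.70. Set beside them, 6 of 15 tested p53 targets of arrest and feedback rose and none fell, with a median of 0.79; the difference between the lists was not tested. The 3 largest rises were those of Cdkn1a, the cell cycle inhibitor p21 (log2 fold change 4.02), Phlda3, an inhibitor of Akt (2.83), and Btg2, an antiproliferative gene (2.19). Mdm2, which degrades p53, had a log2 fold change of 1.78 (limma-voom adjusted p = 4.74e-05). Summed over the list, these targets stood at 844 to 1120 CPM in NDEA livers and 314 to 386 CPM in control livers.

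**Figure D3:**
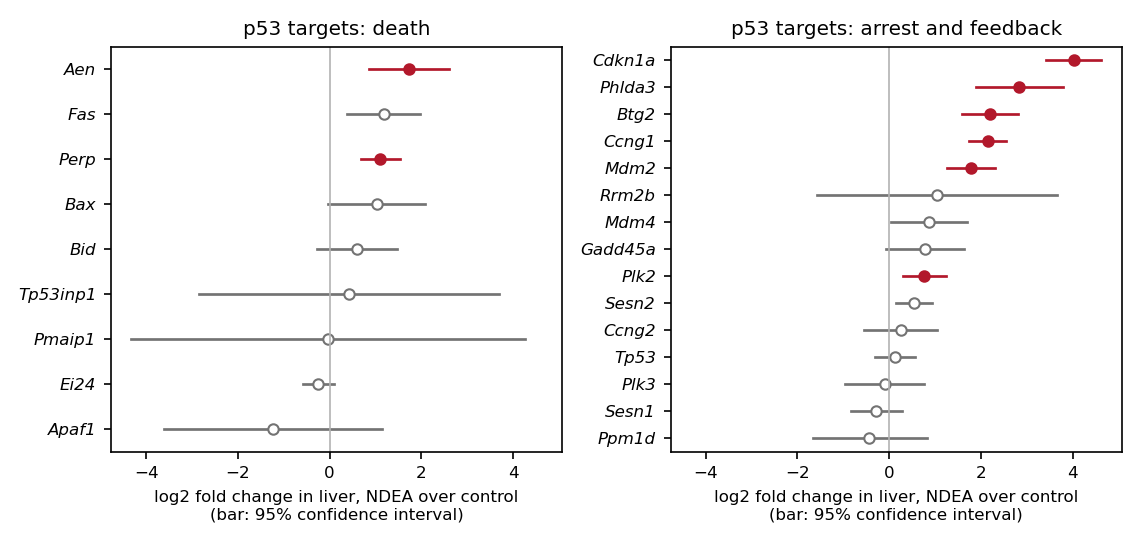
Log2 fold change in liver, NDEA over control, with 95% confidence intervals, of 9 tested p53 death targets (left) and 15 tested p53 targets of arrest and feedback (right), each sorted by estimate on a shared axis. Filled points mark an adjusted p under 0.05, 2 on the left and 6 on the right. The largest death target estimate is that of Aen (1.74, 95% interval 0.87 to 2.60). Filled points on the right run from Plk2 (0.77) to Cdkn1a (4.02).

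Among apoptosis genes outside the members, 20 were tested in liver, and 2 were called higher and 0 lower. Their median log2 fold change was 0.09, and of all genes 2.87% were called higher. Birc5 was among the 2. Birc5, survivin, which acts in mitosis and against caspases, averaged 27.3 ± 7.14 CPM in NDEA liver and 7.30 ± 6.37 CPM in control liver (SD, n = 4 each; log2 fold change 2.67; limma-voom adjusted p = 0.0146). The Birc5 call ended without control 1 (limma-voom adjusted p = 0.0547).

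Calls in the other programmes stand beside 6.61% of all liver genes called, and no difference from that share was tested. Of 14 tested genes of TNF and NF-kB signalling none was called, with a median log2 fold change of 0.03. Of 9 tested genes of lytic death, Acsl4, an acyl-CoA synthetase that favours ferroptosis, fell (log2 fold change -0.52; limma-voom adjusted p = 0.00142). Of 12 endoplasmic reticulum stress genes, Atf4, a transcription factor of the stress response, fell (-0.76; 0.000600) and Herpud1, of protein degradation, rose (0.43; 0.0429). In one fit of all 16 libraries these 3 calls ended (adjusted p of 0.388, 0.121 and 0.164), and that of Herpud1 ended without control 1, 3 or 4 and without NDEA 1, 2 or 3 (0.0673 to 0.144), with no filter (0.0579) and with sample quality weights (0.0567).

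Markers of other cells and of cycling cells moved in the same livers, in which 2.87% of all genes were called higher and 3.74% lower. Of 13 proliferation genes, 8 rose, and their sum was 281 to 411 CPM in NDEA livers and 23.0 to 88.4 CPM in control livers. Their largest estimates of log2 fold change were 5.17 for Ccna2, 4.29 for Top2a and 4.20 for Ccnb1, cyclins and a topoisomerase of dividing cells. Ccna2 had 6 counts in control livers, all in control 2, against 155 counts in NDEA livers. The size of the Ccna2 estimate (SE 1.43) is therefore uncertain. The calls of Ccna2 and Ccnb1 ended without any of control 1 to 4 or NDEA 2 or 4, that of Ccna2 also without NDEA 3 (adjusted p of 0.0516 to 0.169), and that of Ccnb1 with the replicate block. Of 6 tested markers of antigen-presenting cells, 5 rose, with a sum of 1580 to 1930 CPM in NDEA livers and 636 to 745 CPM in control livers. All 5 belong to MHC class II: RT1-Ba, RT1-Bb, RT1-Da, RT1-Db1 and the invariant chain Cd74. The rest of the list, Ciita, Flt3, Xcr1, Clec9a and Itgax, was not tested or not called. Of 7 tested stellate and fibroblast markers, 2 rose, with sums of 411 to 478 CPM in NDEA livers and 212 to 320 CPM in control livers, Col1a2 being at 0. None of 2 tested cholangiocyte markers was called, with sums of 24.3 to 40.5 CPM in NDEA livers and 6.64 to 16.8 CPM in control livers, and Krt19 was at 0. Kupffer and macrophage markers summed to 799 to 954 CPM in NDEA livers and 773 to 887 CPM in control livers, with Marco higher (log2 fold change 0.64) and Vsig4 lower (-0.94) among 11 tested. Of 10 hepatocyte markers 3 rose and 3 fell, with sums of 114000 to 136000 CPM in NDEA livers and 121000 to 149000 CPM in control livers. Mitochondrial transcripts made up 20.1% to 22.4% of counts in NDEA livers and 16.2% to 20.6% in control livers. The part of these in the rises of Perp, Aen and Birc5 was not tested.

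In bone marrow none of the 19 tested members was called by limma-voom, against 0% of all 9239 genes, and limma-trend called 0 genes too. The count of genes was not stable, at 289 with the replicate block, 69 in one fit of all 16 libraries and 323 without control 3. No member was called in these fits either. At an unadjusted p under 0.05 there were 3 members (15.8%), against 1336 of all genes (14.5%). No member's groups failed to overlap, against 5.6% of all genes. The median log2 fold change of the members was 0.23, with 12 estimates above 0 and 7 below, against -0.10 over all genes, of which 44.3% had a higher estimate.

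The 3 members were Tradd, Cflar and Bid. Tradd, the adaptor of TNF receptor 1, stood at 33.6, 24.3, 61.9 and 58.3 CPM in NDEA marrow, against 15.9, 18.0, 29.7 and 24.3 CPM in control marrow. NDEA 3 and 4 were the high libraries, and without them the log2 fold change went down to 0.36, against 0.91 with all libraries (limma-voom adjusted p = 0.284 with all). Cflar stood at 49.8, 67.3, 77.5 and 55.8 CPM in NDEA marrow, against 25.6, 52.5, 27.8 and 50.4 CPM in control marrow. Control 2 and 4 stood above NDEA 1 (log2 fold change 0.65; limma-voom adjusted p = 0.321). Bid stood at 9.04, 17.3, 11.0 and 3.36 CPM in NDEA marrow, against 30.6, 19.9, 10.2 and 24.1 CPM in control marrow. Control 3 lay among the NDEA libraries (log2 fold change -1.09; limma-voom adjusted p = 0.334), and without NDEA 3 and 4 the log2 fold change was -0.56.

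Of 7 p53 death targets tested in marrow, 4 had estimates above 0, against 44.3% of all genes. Aen stood at 25.0, 26.7, 31.2 and 20.8 CPM in NDEA marrow, against 60.3, 36.7, 20.5 and 31.1 CPM in control marrow. The groups overlapped (log2 fold change -0.36, 95% interval -1.05 to 0.33). Bax stood at 22.2, 21.5, 11.6 and 16.4 CPM in NDEA marrow, against 10.9, 7.58, 11.1 and 15.0 CPM in control marrow, and NDEA 3 overlapped the controls (log2 fold change 0.69; limma-voom adjusted p = 0.432). Pmaip1 stood at 32.2, 24.7, 21.2 and 11.9 CPM in NDEA marrow, against 12.2, 18.3, 20.3 and 18.8 CPM in control marrow. Its libraries overlapped at both ends (log2 fold change 0.23; limma-voom adjusted p = 0.791). Fas stood at 6.26, 1.17, 13.7 and 8.30 CPM in NDEA marrow, against 2.10, 2.64, 4.11 and 1.07 CPM in control marrow. NDEA 2 fell within the controls, and the interval of the log2 fold change was wide (-1.06 to 3.32). Without NDEA 3 and 4 the log2 fold changes were 1.00 for Bax, 0.64 for Pmaip1, 0.10 for Fas and -0.36 for Aen. None was called (limma-voom adjusted p of 0.82 to 0.996). The p53 reference genes Cdkn1a and Mdm2 had log2 fold changes of 0.08 and -0.33 in marrow, with limma-voom adjusted p of 0.970 and 0.680.

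Bcl2l1, which supports survival of maturing red cells, stood at 77.2, 87.2, 114 and 219 CPM in NDEA marrow, against 64.1, 74.9, 110.0 and 71.7 CPM in control marrow. NDEA 4 was far above the rest; the log2 fold change was 0.53 with all libraries (limma-voom adjusted p = 0.418) and 0.05 without NDEA 3 and 4. The log2 ratio of Bax to Bcl2l1 averaged -2.70 ± 0.95 in NDEA marrow and -2.84 ± 0.53 in control marrow (SD, n = 4 each). Bak1 stood at 30.1, 40.1, 21.8 and 49.8 CPM in NDEA marrow, against 15.1, 29.1, 29.2 and 40.0 CPM in control marrow, and Birc2 at 27.3, 25.3, 35.7 and 52.8 CPM, against 33.1, 22.4, 27.6 and 27.7 CPM. Both overlapped widely. Casp9 stood at 6.72, 9.22, 4.99 and 6.33 CPM in NDEA marrow, against 4.61, 5.64, 5.08 and 2.68 CPM in control marrow, with NDEA 3 among the controls.

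Bcl2 stood at 7.88, 8.39, 0 and 0.395 CPM in NDEA marrow, against 1.68, 7.23, 1.45 and 1.43 CPM in control marrow, and Casp8 at 0.695, 0, 0 and 0 CPM, against 0, 1.59, 0.483 and 0.179 CPM. Perp had 13 counts in NDEA marrow, all in NDEA 1, and 13 in control marrow. Bmf, Casp12 and Xiap had 0 counts in the 4 NDEA marrow libraries, against 18, 12 and 11 counts summed over the 4 controls. For each of the 3, these control counts came from 2 of the 4 libraries, so no fold is given.

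Cell markers and library quality also varied in marrow. Skeletal muscle markers summed to 57.0 to 71.8 CPM in NDEA marrow and 137 to 517 CPM in control marrow, megakaryocyte markers to 164 to 298 CPM in NDEA and 353 to 675 CPM in control marrow, and T and NK cell markers to 28.5 to 90.4 CPM in NDEA and 69.1 to 179 CPM in control marrow. Stellate and fibroblast markers summed to 1220 to 3130 CPM in NDEA marrow and 2340 to 5500 CPM in control marrow, with 6 of 6 tested estimates lower and Col1a2 and Lrat at 0. None of the 7, 5, 8 and 6 tested genes of these 4 lists was called, and Gzmb was at 0. Not all lists were lower with NDEA. Endothelial markers summed to 139 to 155 CPM in NDEA and 105 to 142 CPM in control marrow, with Clec4g at 0. Neutrophil markers summed to 22100 to 37000 CPM in NDEA and 21800 to 32200 CPM in control marrow. Erythroid markers summed to 120000 to 159000 CPM in NDEA and 132000 to 199000 CPM in control marrow. Mitochondrial transcripts made up 8.37% to 15.8% of counts in NDEA marrow and 6.41% to 13.0% in control marrow. Their part in the members' values was not tested.

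The NDEA effect was compared between tissues as a treatment-by-tissue term in all 16 libraries. Of 26 tested members, Aen alone was called (3.85%), with a higher effect in liver than in marrow, against 2.28% of all 11261 genes, 2.07% in that direction and 0.213% in the other. Its log2 difference of effects was 2.14 (SE 0.56; limma-voom adjusted p = 0.0413). This call was near the threshold: it held in 9 of 24 alternatives, whose adjusted p ran from 0.0147 to 0.115 and whose estimates ran from 1.90 to 2.42. It ended without any of liver control 1 to 4, liver NDEA 2 or 4, marrow control 1, 2 or 4, or marrow NDEA 1 or 4 (adjusted p of 0.0528 to 0.115), and without marrow NDEA 3 and 4 together (0.0908). It ended also with median-of-ratios scaling (0.0570), with no filter (0.0601) and with the replicate block (0.0657). The median difference over the members was 0.51, against 0.32 over all genes, of which 62.4% had a higher estimate. For Perp the difference was 1.93 (SE 1.34; limma-voom adjusted p = 0.488), with marrow near 0. For Fas it was 0.06 with a 95% interval of -2.01 to 2.14, and for Bax 0.39 with an interval of -1.0 to 1.78, so the data do not say whether their effects differed between tissues.

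Between control liver and control marrow 12 of 22 tested members were called, 6 higher and 6 lower in liver (27.3% each). Both shares lay below those of all 10071 genes, of which 66.1% were called, 32.8% higher and 33.4% lower. In CPM scaled over both control tissues, Perp averaged 43.7 ± 9.93 in liver and 0.624 ± 0.830 in marrow (SD, n = 4 each), a log2 difference of 6.94 (SE 0.85; limma-voom adjusted p = 3.22e-06). Casp12 and Bmf also stood far higher in liver, at 12.1 ± 4.91 and 10.5 ± 3.78 CPM there and 0.740 ± 1.04 and 0.877 ± 1.14 CPM in marrow. The receptors Fas and Tnfrsf1a and the p53 target Ei24 were higher in liver by 2.38, 1.71 and 2.12 on the log2 scale.

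Aen, in contrast, averaged 8.52 ± 4.43 CPM in control liver and 33.4 ± 14.7 CPM in control marrow (SD, n = 4 each; log2 difference -1.96; limma-voom adjusted p = 0.00109). Pmaip1 averaged 1.18 ± 1.37 CPM in control liver and 15.7 ± 3.39 CPM in control marrow, a log2 difference of -5.05 (limma-voom adjusted p = 0.000146). Only 2 of 4 control livers had a Pmaip1 count, so the size of this difference is uncertain (95% interval -6.96 to -3.13). Other members of the intrinsic route were lower in liver too. Bcl2l1 averaged 6.35 ± 2.72 CPM in control liver and 72.4 ± 19.3 CPM in control marrow, Bak1 2.66 ± 1.09 and 25.6 ± 9.25 CPM, and Apaf1 4.41 ± 2.63 and 29.4 ± 8.57 CPM. The adaptor Tradd, at 5.08 ± 3.35 CPM in control liver and 19.9 ± 5.89 CPM in control marrow, completed the 6 (log2 difference -2.28). Bax did not pass the test, at 6.81 ± 4.09 CPM in control liver and 10.0 ± 2.71 CPM in control marrow (log2 difference -0.74, 95% interval -1.79 to 0.31). All 12 calls held in every alternative in which the gene was tested, including those that left out 1 library.

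**Figure D4:**
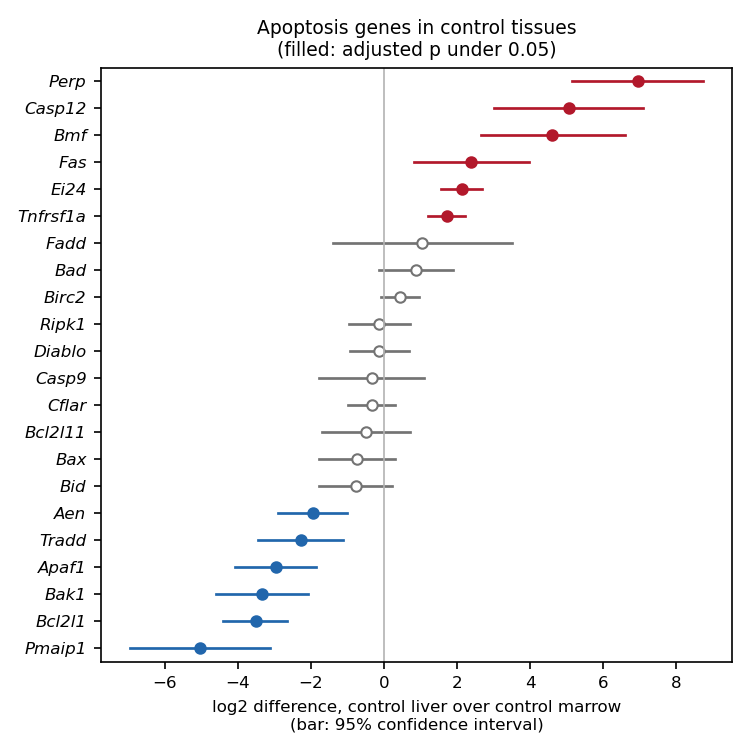
Log2 difference of each tested member between control liver and control marrow, with 95% confidence intervals, sorted by estimate. Filled points mark an adjusted p under 0.05. Perp (6.94) is highest in liver relative to marrow, and Pmaip1 (-5.05) lowest. Each had counts in only 2 of 4 control libraries of its lower tissue.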

How the data were processed

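Total RNA of liver and marrow was made into QuantSeq 3′ libraries, per the labels' protocols. The authors deposited raw counts of reads per gene; STAR and DESeq2 are named in the submitters' processing notes, and neither build nor counting tool is given in the sources used here. Of 32635 lines, 12 gene records broken over 2 lines were rejoined, and the unit of the count columns was recorded as other for this reason. The members, lists and tests were chosen with earlier results of these data known.

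Each tissue was fitted alone with limma-voom (limma 3.58.1, R 4.3.3), with treatment as sole term, TMM scaling (trims 0.3 and 0.05), a prior of 0.5 counts, and Benjamini-Hochberg adjustment. A gene was kept with the CPM of 10 counts in at least 4 libraries and 15 counts in all. The tissue difference used all 16 libraries, and the tissue level the 8 control libraries. CPM values use scaled library sizes. The method was tested on simulated data with changes planted only in genes of higher counts, which does not cover members with few counts. Library values were given for members called or without overlap and for a set of 11 members whatever their values; Tradd and Bid were added after their values were seen. Tables of promoters came from RefSeq (GRCr8). Alternatives changed the scaling, filter, test, block and libraries. Correlations of same-numbered libraries were under 0.1. Such values cannot say whether these libraries came from the same rat. Some genes of the comparison lists are not reported here.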

Additional observations from a re-analysis of the deposited data

Results flagged for a closer look

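The groups of each member, Cdkn1a and Mdm2 were screened where a group held at least 10 counts, 110 groups in all. In 8 of the 110, 1 library stood apart from the other 3 by more than Dixon's 95% critical value for 4 values, a gap that chance gives in about 1 group in 20. Bcl2 stood at 7.23 CPM in marrow control 2, against 1.43 to 1.68 CPM in the other controls. Bad stood at 22.5 CPM in marrow control 4, against 5.64 to 7.54 CPM in the other controls. Birc3 stood at 3.79 CPM in liver control 3, against 0 to 0.525 CPM. Tnfrsf1a stood at 30.4 CPM in marrow NDEA 2, against 16.7 to 19.0 CPM in the other NDEA libraries. Casp9 stood at 0.190 CPM in liver NDEA 2, against 2.39 to 2.70 CPM in the other NDEA livers. Perp stood at 3.01 CPM in marrow NDEA 1 and at 0 in the other NDEA marrow libraries. Mdm2 stood at 79.2 CPM in liver NDEA 2, against 59.3 to 59.8 CPM in the others, and at 29.7 CPM in marrow NDEA 3, against 14.2 to 16.7 CPM. The NDEA effect on Aen was higher in liver than in marrow by 2.14 on the log2 scale in the treatment-by-tissue test.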

How the results depend on the processing

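In liver, 1 to 3 members were called with a library left out, and 431 to 589 genes. In marrow 0 members were called under every alternative run, while the count of genes was 2 with no filter, 289 with the replicate block (109 higher, 180 lower), 69 in one fit of all 16 libraries and 0 to 323 with a library left out, the 323 without control 3; limma-trend called 0. The tissue difference called 89 genes without marrow NDEA 3 and 4 and 116 to 549 with a library left out. Members called in the tissue difference numbered 0 with median-of-ratios scaling, with no filter, with the replicate block and without marrow NDEA 3 and 4, and 0 to 1 with a library left out. Control tissues gave 12 to 13 members and 6218 to 6577 genes with a library left out. Scaling by library totals alone moved the median log2 fold change of all liver genes to 0.124, against 0.012. No called value changed sign. The cause of these changes was not tested. Several members had only a few counts per library, such as Pmaip1 in liver and Perp in marrow, and intervals for them were wide.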
